A study of Mus musculus with 2 samples.

Results

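The genes described here are 7 genes of cholesterol synthesis, Hmgcs1, Idi1, Fdft1, Sqle, Lss, Dhcr7 and Srebf2, out of 21938 protein-coding genes in the GENCODE M21 annotation of the mouse genome (mm10). They were taken by name, and each was examined over its gene body with 10 kb on either side and within 500 bases of every annotated start. The working name of the set also mentions uptake, but none of the 7 is an uptake receptor: 6 encode enzymes of synthesis and 1 their transcriptional activator. The assay was DNase-seq: DNase I nicks accessible chromatin, and sequencing of the released ends shows where it cut. The tissue was left cerebral cortex of female B6CASTF1/J mice aged 18 to 20 months, a first-generation cross of C57BL/6J and CAST animals, obtained from The Jackson Laboratory. There was 1 group with 2 libraries, called library 1 and library 2 after their biological replicate numbers, so the design holds no comparison between conditions. Each library has a tissue sample of its own, but the labels list a single donor identifier for both and do not state separate animals, so an SD below measures only the spread between these libraries, which may be technical.

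Cells build cholesterol from acetyl-CoA through mevalonate, isoprenoid units, squalene and lanosterol. When sterols in the endoplasmic reticulum run low, the membrane-bound factor SREBP-2 is cut free, enters the nucleus and binds sterol regulatory elements in the promoters of the enzyme genes. The brain makes its own cholesterol, because lipoproteins of the blood do not cross the blood-brain barrier, and uses it for myelin and for synaptic and glial membranes. Intact cortex mixes neurons, glia and vessel cells, and a peak in bulk tissue does not say which of them were open.

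The lists held 132054 peaks in library 1 and 139799 in library 2, with 271439 and 323715 footprints, which are short stretches protected from cutting inside open regions. The sources used here give no read numbers, and sequencing depth is unknown. Of defining markers, all 6 genes of cortical excitatory neurons had a peak at a promoter, that is near an annotated start, in both libraries, as did 3 of 3 genes of inhibitory neurons, 5 of 6 of astrocytes and 3 of 5 of oligodendrocytes. None of 4 genes of microglia, 3 of endothelial cells or 4 of liver did. Aqp4, a water channel of astrocyte end-feet, and Mog, a myelin protein, had no promoter peak in either library, and Mobp, a further myelin gene, had one in library 1 alone. A promoter peak in a single library was also found at 1 microglial gene in library 1, and at 1 microglial gene and 2 endothelial genes in library 2.

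The promoters that carry the sequence features described below are printed here on the strand of the gene, 5′ to 3′, from the RefSeq promoter table of build GRCm38.p6, whose letters for these genes are those of the mm10 genome. The table gave a window for 5 of the 7 genes, and Fdft1 and Sqle are named only. Capitals mark bases inside a footprint in both libraries. Hmgcs1 and Srebf2 are shown for a sterol element beside a cyclic AMP core, and Lss and Dhcr7 for an NRF1-type element inside a footprint. The stretches are chr13:119690101-119690380, chr15:82147019-82147210, chr10:76531355-76531617 and chr7:143822917-143823174, all on the plus strand, and each ends no more than 30 bases past the start. They are the C57BL/6J reference, and the CAST alleles of the cross were not examined.
Hmgcs1: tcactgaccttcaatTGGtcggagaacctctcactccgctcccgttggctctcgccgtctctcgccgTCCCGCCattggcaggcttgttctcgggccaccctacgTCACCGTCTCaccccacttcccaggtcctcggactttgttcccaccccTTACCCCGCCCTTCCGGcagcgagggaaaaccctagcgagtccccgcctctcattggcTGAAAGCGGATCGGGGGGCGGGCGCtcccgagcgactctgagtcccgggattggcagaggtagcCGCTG
Srebf2: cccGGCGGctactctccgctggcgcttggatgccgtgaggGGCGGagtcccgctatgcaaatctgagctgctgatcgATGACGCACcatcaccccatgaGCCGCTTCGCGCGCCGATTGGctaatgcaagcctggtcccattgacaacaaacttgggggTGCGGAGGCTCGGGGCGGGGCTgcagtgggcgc
Lss: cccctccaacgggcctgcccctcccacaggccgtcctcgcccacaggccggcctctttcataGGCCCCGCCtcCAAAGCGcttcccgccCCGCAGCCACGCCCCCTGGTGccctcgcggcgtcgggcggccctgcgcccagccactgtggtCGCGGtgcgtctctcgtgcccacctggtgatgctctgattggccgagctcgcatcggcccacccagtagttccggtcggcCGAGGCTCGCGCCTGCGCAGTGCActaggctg
Dhcr7: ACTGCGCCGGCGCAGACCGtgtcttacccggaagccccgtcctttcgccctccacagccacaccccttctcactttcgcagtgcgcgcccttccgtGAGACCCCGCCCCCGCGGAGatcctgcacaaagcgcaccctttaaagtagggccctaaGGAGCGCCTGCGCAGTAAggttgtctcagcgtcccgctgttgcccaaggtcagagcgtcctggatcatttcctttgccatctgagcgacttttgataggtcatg

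Both libraries showed a promoter peak at all 7 genes, meaning a peak no more than 500 bases from any annotated start. Among all 21938 protein-coding genes the share was 63.6% in both libraries, 64.5% in library 1 and 66.5% in library 2. The 7 promoters were also strong. Their median signal, the authors' value per peak, was 8.0 in library 1 and 8.11 in library 2. The 13956 genes whose promoters had a peak in both had medians of 3.13 in library 1 and 3.47 in library 2. By mean signal the weakest of the 7, Sqle, stood above 81.0% of those 13956 genes and the strongest above 99.1%. Idi1 and Dhcr7 entered with peaks nearer to a start of another gene. With peaks nearest to their own starts alone, their means were 5.06 and 5.16, below the 5.84 of Sqle. This choice was made after the values were seen. The median of the 7 was then that of Lss, 6.20 in library 1 and 6.54 in library 2. The lists were not set against each other by a test, and the 7 genes were named with earlier results of these data known.

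Hmgcs1 encodes cytosolic HMG-CoA synthase, which joins acetyl-CoA and acetoacetyl-CoA at the entry of the mevalonate route (chromosome 13, 119690379 to 119708260). Its promoter signal was 8.73 in library 1 and 8.11 in library 2, or 8.42 ± 0.436 (SD, n = 2), above 96.4% of genes with a promoter peak. The peak ran from 119690041 to 119690320 in library 1 and to 119690420 in library 2, so that the first annotated start, at 119690379, lay 59 bases beyond the peak in library 1 and inside it in library 2. No other peak was found over Hmgcs1 or its flanks in library 1. Library 2 had another 2, weak ones of signal 0.499 and 0.641 beyond the 3′ end, of which library 1 had neither. All 4 distinct starts lay within 500 bases of the promoter peak.

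Idi1 encodes isopentenyl-diphosphate isomerase, which interconverts the 5-carbon isoprenoid units (chromosome 13, 8885501 to 8892451). Its promoter was split into a pair of peaks in both libraries. The upstream one began at 8885481 and held the first annotated start, with a signal of 5.55 in library 1 and 4.58 in library 2. The downstream one, from 8885761 to 8885980 in both libraries, held the start at 8885943 and had a signal of 6.56 in library 1 and 6.99 in library 2. The libraries thus differed in sign, the upstream peak being higher in library 1 and the downstream peak in library 2. An annotated start of Gm48574, a transcript of unclassified type, lies inside the downstream peak and nearer to its middle than any Idi1 start. With peaks nearest to an Idi1 start alone, a choice made after the values were seen, the promoter signal was 5.06 ± 0.687 (SD, n = 2) in place of 6.78 ± 0.305.

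Fdft1 encodes squalene synthase, the enzyme that commits the route to sterols (chromosome 14, 63145150 to 63179578, minus strand). It had the strongest promoter of the 7, with a signal of 10.3 in library 1 and 9.57 in library 2 (9.94 ± 0.528, SD, n = 2). The peak spanned 63177921 to 63178180 in both libraries and lay 124 bases upstream of the start at 63177797. The most upstream annotated start, at 63179578, belongs to the protein-coding transcript Fdft1-204 and had no peak, no footprint and no base under a false discovery rate of 0.05 within 500 bases in either library. A weaker peak had its middle 482 bases downstream of the neighbouring start at 63177793 in library 1, with a signal of 1.22, and 502 bases downstream in library 2, with 0.684. This was among the wider gaps between the libraries at these genes.

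The gene body of Fdft1 held further open sites. An intronic peak at 63150501 to 63150700 in library 1 and to 63150660 in library 2 had a signal of 2.65 in library 1 and 1.68 in library 2, above 92.1% and 83.2% of all peaks of each list. Around the start of the retained-intron transcript Fdft1-203 at 63165036, library 1 had a single peak of 0.742, and library 2 had a pair of 0.666 and 0.573. Library 1 alone had peaks of 0.585 and 0.395 beyond the 3′ end.

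Sqle encodes squalene epoxidase, which adds oxygen to squalene and is a control point of the sterol branch (chromosome 15, 59315077 to 59331192). It had the lowest promoter signal of the 7 and the smallest spread, 5.89 in library 1 and 5.80 in library 2 (5.84 ± 0.0640, SD, n = 2). The peak had the same borders in both libraries, 59314821 to 59315100, and held the first 2 of the 4 starts. A second region upstream, from 59306832 to 59307020 in library 1 and from 59306761 to 59307000 in library 2, covered a start of the pseudogene Zfp572 and had a signal of 0.633 in library 1 and 1.20 in library 2. Library 2 alone had a peak of 0.641 in an annotated exon 904 bases after a start.

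Lss encodes lanosterol synthase, which closes the sterol rings (chromosome 10, 76531588 to 76557138). Its promoter signal was 6.20 in library 1 and 6.54 in library 2 (6.37 ± 0.242, SD, n = 2). That peak held 3 of the 7 distinct starts in both libraries. Apart from it, each library had 1 weak peak in an exon, of 0.333 in library 1 and 0.395 in library 2, at different places. The 3 starts inside the gene, at 76541882, 76551210 and 76552271, had no peak within 500 bases in either library.

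Dhcr7 encodes 7-dehydrocholesterol reductase, the enzyme of the last step to cholesterol in the Kandutsch-Russell route (chromosome 7, 143823145 to 143848410). It had 3 peaks in each library, all of them promoter peaks, in 2 groups of starts. The strongest lay upstream of the first start, from 143822821 in library 1 and 143822841 in library 2 to 143823080, with a signal of 8.06 in library 1 and 9.02 in library 2 (8.54 ± 0.672, SD, n = 2). It covered starts of Nadsyn1, which encodes NAD synthetase and is transcribed the other way, and its middle was nearer to a Nadsyn1 start than to one of Dhcr7 in both libraries. Openness there cannot be told apart between the genes. The other peaks lay over the second group of starts. That around 143829626 had a signal of 4.02 in library 1 and 3.87 in library 2, and that around 143830077 had 5.04 and 5.28. With peaks nearest to a Dhcr7 start alone, a choice made after the values were seen, the promoter signal was 5.16 ± 0.171 (SD, n = 2) and Dhcr7 and Idi1, whose values then overlap, would stand below Sqle.

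Srebf2 encodes SREBP-2 and hosts the microRNA gene Mir33 in its transcribed region (chromosome 15, 82147181 to 82205379). Its promoter signal was 8.0 in library 1 and 8.63 in library 2 (8.31 ± 0.450, SD, n = 2), in a peak starting at 82147001 that held the first start. A broader peak between that start and the next group of starts had a signal of 1.08 in library 1 and 1.74 in library 2. It ran from 82147561 to 82147860 in library 1 and from 82147681 to 82148020 in library 2, and reached the start at 82148013 in library 2 alone. The start of the short protein-coding transcript Srebf2-206, at 82194972, had no peak within 500 bases.

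Srebf2 had the most peaks of the 7 genes, 7 in library 1 and 10 in library 2. A site 8440 bases upstream of the first start had a signal of 1.11 in library 1 and 1.27 in library 2. An intronic site at 82165381 to 82165600 had 1.37 and 1.73, with the same borders in both libraries. A site beyond the 3′ end had 0.926 in library 1 and 0.832 in library 2, and an intronic one at 82188613 to 82188744 in library 1 had 0.687 in library 1 and 0.561 in library 2. The peaks found in a single library were weaker, 0.476 in library 1 and 0.438 to 0.543 in library 2. The weakest of these, 0.438, lay within 500 bases of a start of the neighbouring gene Shisa8.

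**Figure D1:**
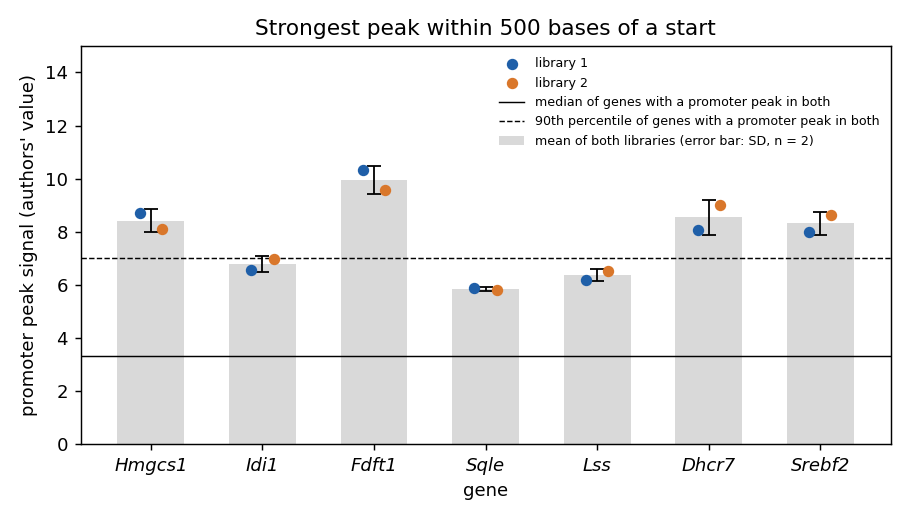
Promoter signal of each gene: the strongest peak no more than 500 bases from a start, in the authors' units, with a point per library, the mean as a bar and the SD over 2 libraries as error bar. All 14 points stand above the solid line at 3.32, the median of genes whose promoter had a peak in both libraries, and Fdft1, Dhcr7, Hmgcs1 and Srebf2 stand above the dashed line at 7.02, their 90th percentile.

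In order of mean promoter signal the genes ran Fdft1, Dhcr7, Hmgcs1, Srebf2, Idi1, Lss and Sqle. The values of Dhcr7, Hmgcs1 and Srebf2 overlapped between the libraries, with gaps of 0.123 and 0.102 between neighbouring means, and their order is not resolved. Fdft1 stood 1.40 above Dhcr7 with no overlap. Srebf2 stood 1.54 above Idi1, Idi1 0.405 above Lss and Lss 0.530 above Sqle, each without overlap, although with 2 libraries each such gap rests on 4 values. Between libraries the promoter signal was higher in library 1 for Hmgcs1, Fdft1 and Sqle and higher in library 2 for Idi1, Lss, Dhcr7 and Srebf2. The log2 ratio of library 1 over library 2 ran from -0.16 at Dhcr7 to 0.11 at Fdft1.

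In all the 7 genes had 24 peaks in library 1 and 28 in library 2, of which 13 and 14 were promoter peaks. The remaining 11 and 14 were 5 and 6 in introns, 1 and 2 in exons, 2 in each library in the upstream flanks, and 3 and 4 in the downstream flanks. To allow for length, the peak number of each gene was set against the 200 protein-coding genes of nearest span. The percentile was 14.5 in library 1 and 35.8 in library 2 for Hmgcs1, 64.0 and 51.5 for Idi1, and 68.3 and 53.3 for Fdft1. Sqle stood at 29.5 in library 1 and 41.3 in library 2, Lss at 23.3 and 21.3, and Dhcr7 at 36.8 and 31.5. Srebf2 stood at 61.5 in library 1 and at 78.8, the highest of the 7, in library 2. The median of the 7 was 36.8 in library 1 and 41.3 in library 2, against 49.8 in each library over all protein-coding genes and 63.0 and 62.5 over genes with a promoter peak in both. Peaks covered between 0.739% of the window at Hmgcs1 and 2.31% at Fdft1 in library 1, and between 0.854% at Lss and 2.22% at Srebf2 in library 2. These percentiles count promoter peaks too. Counted over the gene bodies without flanks, the median percentile was 52.6, on the other side of the middle. That count still includes promoter peaks that overlap the gene body, and no percentile without promoter peaks was computed.

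**Figure D2:**
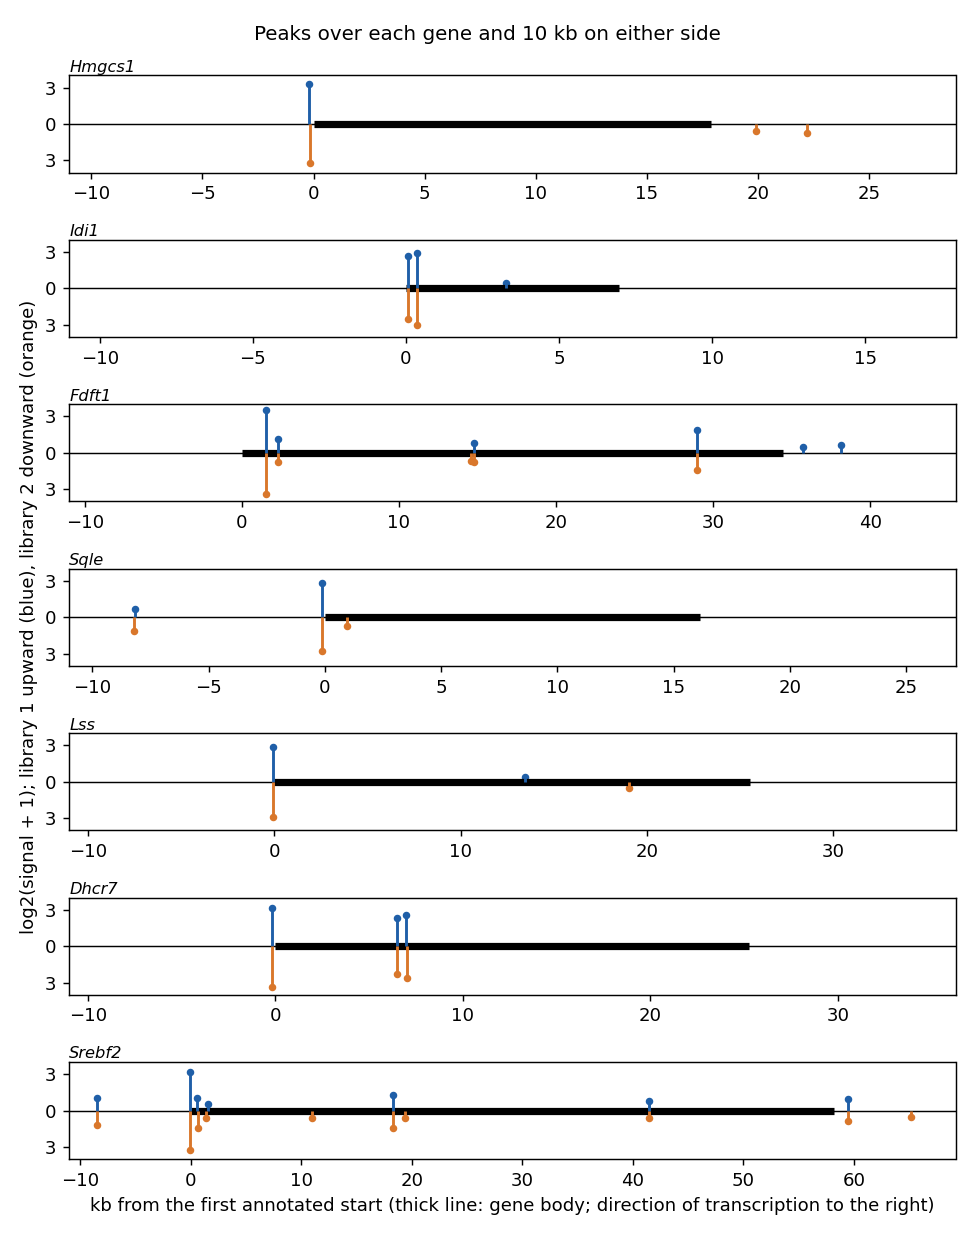
Peaks of each gene with its flanks of 10 kb, placed by the middle of the peak in kb from the first annotated start and drawn with height log2(signal + 1), library 1 upward and library 2 downward. The tallest peaks of both libraries stand at the starts, and those inside Dhcr7 lie over its second group of starts, while peaks without a counterpart in the other library are all short.

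The promoter peaks of these genes were shared between the libraries, as most promoter peaks were. All 13 promoter peaks of library 1 (exact binomial 95% interval of the share 75.3 to 100%) overlapped a library 2 peak, and all 14 of library 2 (76.8 to 100%) overlapped one of library 1. Over all protein-coding genes 88.6% of library 1 promoter peaks and 83.6% of library 2 promoter peaks did, shares within both intervals. Of the 11 other peaks of library 1, 6 were shared, and of the 14 of library 2, 6. The share over all peaks away from promoters was not counted. Over all peaks of these genes the shares were 79.2% (57.8 to 92.9%) in library 1 and 71.4% (51.3 to 86.8%) in library 2, near the 77.8% and 73.2% of all peaks in the lists. The 5 unshared peaks of library 1 had signals of 0.333 to 0.585 and the 8 of library 2 of 0.395 to 0.641. Over all peaks of the lists in these ranges, 65.7% of 41209 in library 1 and 64.8% of 37309 in library 2 were shared. At these genes 0 of 5 and 2 of 10 were, but the ranges were set by their own unshared peaks. The binomial intervals cover the counting of regions only.

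Over 19 matched pairs, peaks that were each other's strongest overlap, log2(library 1/library 2) centred on a median of 0.02, with an SD of 0.40. Over all 99347 matched pairs the values were -0.09 and 0.40. None of the 19 differed more than 2-fold, against 1.59% of all pairs. The widest gaps were at the Zfp572 start beside Sqle (-0.93), at the peak downstream of the main Fdft1 start (0.83), at the second Srebf2 promoter peak (-0.68) and at the Fdft1 intronic peak (0.66).

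Of 43 distinct annotated starts of the 7 genes, which have 45 transcripts, 32 had a peak within 500 bases in both libraries and 11 had none in either. No start had a peak in only 1 library. The same shares over the starts of all protein-coding genes were not counted, so these numbers describe the 7 genes alone. Of the starts, 13 lay inside a peak in library 1 and 20 in library 2, and the remaining ones with a peak lay beside it. At all 7 genes the middle of the strongest promoter peak lay upstream of the nearest start of the gene in both libraries. How often this holds at other genes was not counted. At Idi1 and Dhcr7 that peak lay nearer to a start of Gm48574 or Nadsyn1. Starts without a peak were 1 each at Idi1, Fdft1, Sqle and Srebf2, 3 at Lss and 4 at Dhcr7, while Hmgcs1 had none. All but 3 of these 11 are annotated as retained introns, as processed transcripts or as targets of nonsense-mediated decay. The exceptions were the protein-coding transcripts Fdft1-204, Lss-208 and Srebf2-206.

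The per-base tables give a false discovery rate (FDR) for the enrichment of cuts and list values under 0.05 alone. At the main promoter peak the lowest FDR, as −log10, was 64.3 in library 1 and 51.6 in library 2 for Hmgcs1, and 119 and 121 for Fdft1. It was 50.4 and 66.5 for Sqle, 77.1 and 93.4 for Lss, and 72.5 and 86.3 for Idi1. For Dhcr7 it was 84.0 and 140, and for Srebf2 76.7 and 102. Hmgcs1 was the single gene of the 7 where library 1 gave the lower rate, that is the higher −log10 value. Peaks found in a single library lay closer to the listing limit, with −log10 values of 1.48 to 3.20 in library 1 and 1.39 to 4.12 in library 2. Every base of the main promoter peaks was under 0.05. The enriched stretch was wider than the peak: within 500 bases of the first Hmgcs1 start, 874 bases in library 1 and 994 in library 2 were under 0.05, and 757 and 804 under 0.001.

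**Figure D3:**
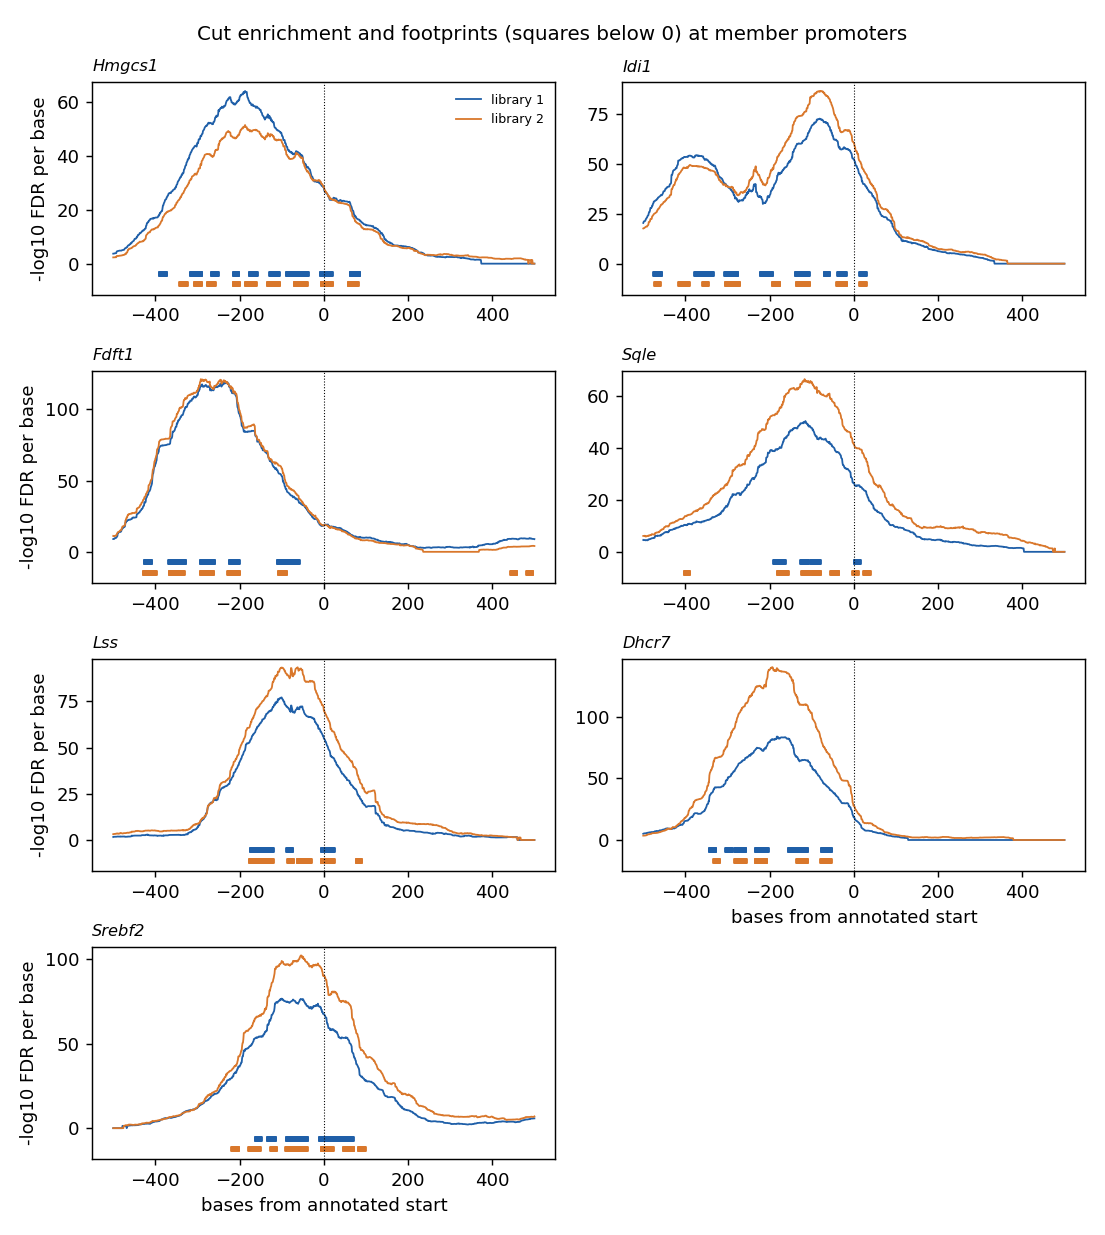
Enrichment of cuts per base, as −log10 of the FDR, within 500 bases of the annotated start nearest to the strongest promoter peak, with the direction of transcription to the right; bases not listed are drawn at 0. Squares under the curves mark footprints, and in both libraries the curves are highest upstream of the start, with a second summit further upstream at Idi1.

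Every one of the 7 genes had footprints within 500 bases of a start in both libraries, where 61.5% of all protein-coding genes did. Of the 13956 genes with a promoter peak in both, 13497 did, so this count does not set the 7 genes apart from other open promoters. The 7 genes had 63 footprints in library 1 and 71 in library 2, a median of 10 per gene in each, against 6 and 7 for genes with a promoter peak in both. Those genes were matched to the 7 neither by promoter signal nor by number of starts, and each start adds a window. Of the 63 and 71 footprints, 45 in library 1 and 47 in library 2 overlapped a footprint of the other library, or 71.4% and 66.2%. The same share was 65.1% in library 1 and 54.9% in library 2 for footprints near the starts of all genes with a promoter peak in both, and 52.4% and 43.4% over the whole lists. Shared footprints had a median width of 17 bases in each library, against 10 in library 1 and 9 in library 2 for unshared ones. Near the starts of all genes with a promoter peak in both, the medians were 13 and 14 bases for shared footprints and 8 in each library for unshared ones. A rule of 1 base of overlap favours wide footprints. Dhcr7, with its separate groups of starts, had the most, 16 footprints in library 1 and 14 in library 2, of which 12 and 11 were shared. Hmgcs1 had 10 and 9, with 8 shared in each. Fdft1 had 11 and 12, with 5 and 6 shared, and Idi1 11 and 10, with 6 and 7. Srebf2 had 7 and 11, with 6 shared in each, and Lss 4 and 8, with 4 and 5. All 4 footprints of Sqle in library 1 were shared, and 4 of its 7 in library 2. The widest of library 1 was at Fdft1, 34 bases from 63178129 to 63178162 inside the main promoter peak, where library 2 had one of 30 bases. The widest of library 2 was at Dhcr7, 31 bases from 143829618 to 143829648 over the second group of starts, where library 1 had one of 32 bases.

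The sterol regulatory element was searched as TCACNCCAC on both strands of the 300-base windows, 250 bases before to 50 after the RefSeq start. It was found at 1 of the 5 genes searched, Hmgcs1, and in 1.17% of the 17492 protein-coding genes with such a window. Since all 7 genes have a promoter peak, each share is followed by that over 14154 windows of 300 bases centred on the strongest promoter peak of a gene in library 1, which was 0.996% for this element. Its first 8 letters, TCACNCCA, a form added after the sequences were seen, were found at Hmgcs1 and Srebf2, in 3.98% of windows and in 3.17% of peak windows. In Hmgcs1 the match TCACCCCAC lay at 119690214 to 119690222, on the plus strand, inside the promoter peak of both libraries. A footprint covered 4 of its 9 bases in library 1 and 2 in library 2. In Srebf2 the match TCACCCCA lay at 82147107 to 82147114 and had 0 of 8 bases in a footprint in library 1 and 2 in library 2. The footprints at these promoters thus overlapped the edge of the element or missed it. The E-box form TCACNTGA, to which SREBP proteins also bind, was found at none of the 5, in 4.20% of windows and in 3.83% of peak windows. Fdft1 and Sqle are not among the 5, and no match or lack of one is reported for them in either kind of window.

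Both sterol elements had the core of the cyclic AMP response element, TGACG, upstream with 5 bases between. In Hmgcs1 it lay on the minus strand at 119690204 to 119690208, with 3 of 5 bases in a footprint in library 1 and 5 in library 2. In Srebf2 it lay on the plus strand at 82147097 to 82147101, with all 5 bases in a footprint in both libraries. This core was found at 2 of the 5 genes, in 23.8% of windows and in 34.4% of peak windows. In the peak windows it was found at 4 genes, Hmgcs1, Idi1, Dhcr7 and Srebf2. Of the 17492 windows, 159 (0.909%) held both this core and the 8-letter sterol core, and 5 (0.0286%) held them 5 bases apart, Hmgcs1 and Srebf2 among them. The distance was chosen after it was seen at these genes and is a description. The whole palindrome TGACGTCA was found at none of the 5, in 2.33% of windows and in 3.84% of peak windows. In the peak windows it was found at 1 gene, Idi1.

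The CCAAT box, the site of the NF-Y complex that acts beside SREBP at sterol genes, was searched as CCAAT. It was found at 4 of the 5 genes, Hmgcs1, Idi1, Lss and Srebf2, in 39.2% of windows and in 37.8% of peak windows. Matches of this and the other elements are placed and counted here only within the printed stretches, and those of Idi1 are not placed. Srebf2 had it at 82147134 to 82147138 on the minus strand, all 5 bases in a footprint in both libraries. Of 4 matches at Hmgcs1, that at 119690114 to 119690118 had 3 bases in a footprint in library 1 and 5 in library 2. None of the other 3 had a footprint base in both libraries, and the match at Lss had none in either. The GC box GGGCGG, bound by Sp1, was found at all 5, in 46.3% of windows and in 68.1% of peak windows. Its match in Dhcr7 at 143823019 to 143823024 lay wholly in a footprint in both libraries. So did matches in Hmgcs1 at 119690259 to 119690264 and at 119690327 to 119690332, and 1 in Srebf2 at 82147190 to 82147195. Another match in Srebf2, at 82147058 to 82147063, had 6 bases in a footprint in library 1 and 5 in library 2. Of the 2 matches at Lss, that at 76531439 to 76531444 had 1 base in a footprint in library 1 and 2 in library 2, and that at 76531478 to 76531483 had none in either.

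Lss and Dhcr7 shared another element. The site of NRF1, a factor known for genes of respiration, searched as GCGC, any base and then TGCGC, was found at these 2 genes of the 5, in 6.66% of windows and in 11.6% of peak windows. In both the match read GCGCCTGCGC, on the plus strand. It lay at 76531594 to 76531603 in Lss, 6 bases past the first GENCODE start, and at 143823074 to 143823083 in Dhcr7, 71 bases before the first start. All 10 bases lay in a footprint in both libraries at both genes, although the promoter peak over Dhcr7 ended inside the match, at 143823080. The ETS site CCGGAA was found at Hmgcs1, Lss and Dhcr7, in 19.1% of windows and in 28.6% of peak windows. In the peak windows it was found at 4 genes, these and Idi1. Its match at Hmgcs1, 119690265 to 119690270, was wholly in a footprint in both libraries and adjoined the GC box that ends at 119690264. Those at Lss and Dhcr7 had no base in a footprint in either library. Such matches are letters in a window and not shown binding.

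At 4 of the 5 genes the windows were richer in G and C than the median window. The share of G and C was 71.0% at Lss, 68.7% at Srebf2, 65.7% at Hmgcs1 and 58.3% at Dhcr7, against a median of 56.3% over all windows, and 52.3% at Idi1. The observed over expected number of CpG ran from 0.782 at Lss to 0.864 at Srebf2 among the same 4 genes, was 0.445 at Idi1, and had a median of 0.577 over all windows. These medians include promoters without a peak. None is given for open promoters alone, so the 4 genes are not set apart from those.

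Further genes of cholesterol metabolism were open at their promoters too. Of 30 genes in 3 lists, which are a selection and not the whole pathway, 30 had a promoter peak in both libraries, where 63.6% of protein-coding genes did. The 14 other synthesis genes had a median promoter signal of 5.32 ± 0.0982 (SD over 2 libraries). Highest were Mvd, mevalonate diphosphate decarboxylase, at 9.71 in library 1 and 8.5 in library 2, and Hsd17b7, a sterol ketone reductase, at 8.18 and 7.25. Lowest were Ebp, a sterol isomerase, at 1.74 and 1.93, and Tm7sf2, a sterol C14 reductase, at 2.36 and 2.91.

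The list of 6 regulators, which holds Srebf1 and genes of SREBP processing, had a median of 4.64 ± 0.594. Insig1, which holds the SREBP complex in the endoplasmic reticulum, stood highest at 8.26 in library 1 and 8.24 in library 2, within the range of the 7 genes. Mbtps1, the first protease that cuts SREBP, had 6.35 and 6.42, and Mbtps2, the next protease, on chromosome X, 0.824 and 0.845, the lowest of the 30. Srebf1, the sister of Srebf2, had 2.63 and 3.61, against 8.0 and 8.63 at Srebf2, with no overlap between the genes.

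The 10 genes of uptake, transport and turnover had a lower median promoter signal, 3.18 ± 0.109, and more peaks. Cyp46a1, the neuronal hydroxylase by which cholesterol leaves the brain, had the highest mean promoter signal of the 3 lists and the 7 genes, at 10.9 in library 1 and 9.5 in library 2, a range that overlaps that of Fdft1. It was followed by Npc2, a sterol carrier of lysosomes, at 5.90 and 5.12, with nearly the same mean as Nr1h2, a sterol-sensing nuclear receptor, at 4.58 and 6.44. Lowest were Vldlr, a lipoprotein and reelin receptor, at 1.39 and 1.73, and Abcg1, a sterol exporter, at 1.66 and 2.10. The median percentile of peak number was 86.4 in library 1 and 89.3 in library 2 in this list, against 36.8 and 41.3 for the 7 genes and 43.5 and 46.8 for the other synthesis genes. These list differences are descriptions and were not tested.

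**Figure D4:**
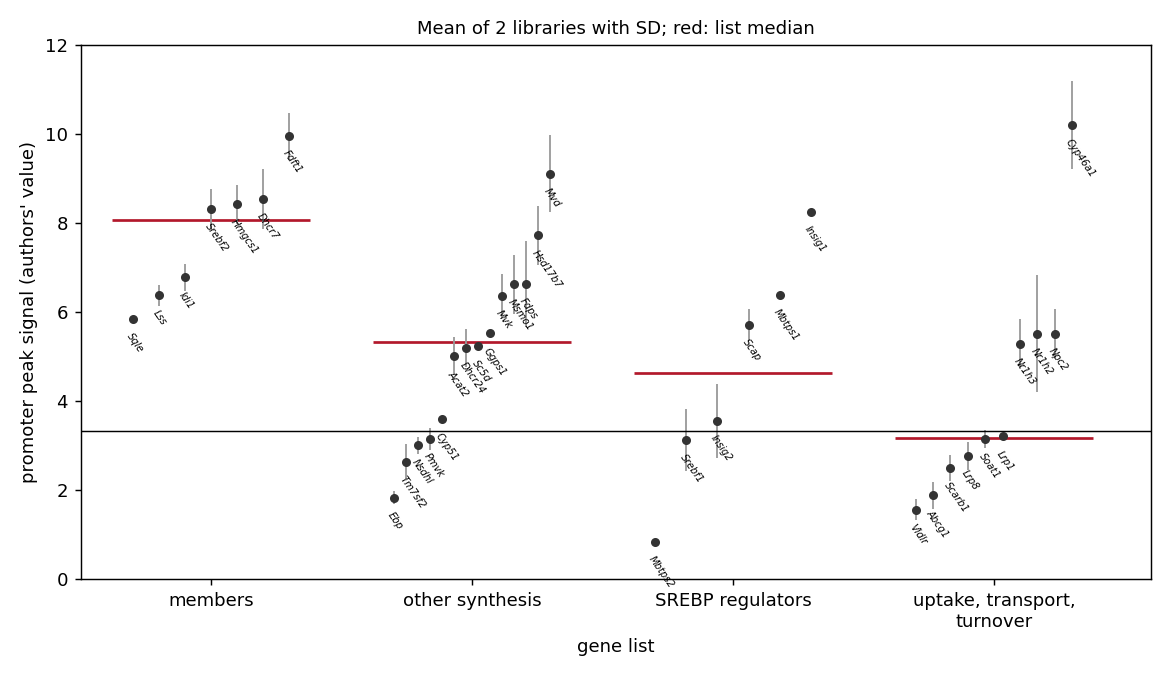
Promoter signal of the 7 genes and of 3 further lists of cholesterol genes, in the authors' units; points are means of 2 libraries with the SD, ordered by value within a list, and red lines are the means over libraries of the list medians (8.05, 5.32, 4.64 and 3.18). The black line marks 3.32, the median of genes whose promoter had a peak in both.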

How the data were processed

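DNase-seq was done on 2 libraries of cortex, each with its own files on mm10, per the deposited readme files: 2 peak lists, footprints, a per-base table and a description. The sources used here name no aligner, caller or threshold. Peak signal (column 7), the authors' deposited value, has no stated normalization. The deposited per-base tables hold an FDR, a q-value, listed under 0.05, and the footprint lists hold 0.01 in every line, read as a threshold. Nor do the sources say how reads of CAST alleles were placed.

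The longer peak list of each library was used, with GENCODE M21. A peak was shared given at least 1 base of overlap. Motifs were searched in RefSeq windows of 1 per gene. All 7 members, the 2 highest and 2 lowest genes of each further list and neighbours with a start near a peak are named. A further marker gene, outside the counts given, is not reported here. The members, lists and motifs were chosen with earlier results of these data known. No test was run, since the design has 1 group. Alternatives were the shorter list, stronger peaks, start windows of 250 or 2000 bases, flanks of 0 or 50 kb, 50% overlap, rescaled signal and each library alone. Matching of peaks to starts, percentiles, overlap and motif search were tested on simulated data. Python 3.11.15 was used with numpy 2.4.6, scipy 1.17.1, pandas 2.3.3 and matplotlib 3.10.9.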

Additional observations from a re-analysis of the deposited data

How the results depend on the processing

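The counts of 7 genes with a promoter peak and with a promoter footprint in both libraries, and of 30 further cholesterol genes with a promoter peak, stayed the same under every alternative run for them. The median promoter signal of the 7 genes, 8.05, stayed at that value with the shorter list, stronger peaks and other windows. It was 8.0 to 8.11 by single library and 7.41 without Dhcr7 (added after seeing the data). With peaks nearest to a start of the gene alone, also added after seeing the data, it was that of Lss, 6.37. It was 12.6 when signals were divided by the library median, which is a change of unit. The mean number of peaks was 26.0, with 24 to 28 by library, 17.0 in the shorter lists and 69.5 with flanks of 50 kb, since a stricter list holds fewer peaks and a wider window more. The shared share, 75.3%, was 71.4 to 79.2% by library, 94.4% in the shorter lists and 89.7% in stronger peaks. The share over all peaks of the shorter lists, or over all stronger peaks, is not given, so these values describe the 7 genes alone. The median percentile of peak number, 39.0, was 36.8 to 41.3 by library, 47.6 in the shorter lists and 52.6 without flanks; the cause was not tested. With the strongest promoter peak as the window, the whole cyclic AMP element was found at 1 gene in place of 0 (3.84% of all such windows, against 2.33%) and its core TGACG at 4 in place of 2 (34.4%, against 23.8%); the sterol element was found at 2 in place of 1 with 8 letters. In the peak windows the ETS site was found at 4 genes in place of 3 (28.6%, against 19.1%). No paired analysis was possible because there is 1 group. Unknown depth limits what the lack of a peak shows.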
